A study of Mus musculus with 4 samples.

Results

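The genes described here encode the proteins that receive a Hedgehog signal and carry it to the nucleus: the receptor Ptch1, the co-receptors Boc, Cdon and Gas1, the antagonist Hhip, the transducer Smo and the transcription factors Gli1, Gli2 and Gli3. Open chromatin at these 9 genes was examined by ATAC-seq, in which a transposase inserts sequencing adapters into accessible DNA. A region of open chromatin was assigned to a gene when its centre lay nearest to one of the gene's transcription starts among all protein-coding starts (GENCODE vM1, mouse build mm9), or within 2.5 kb of one. By this rule the 9 genes held 91 of the 42613 E9.5 regions and 104 of the 46765 E10.5 regions, together 195 of 89378.

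The embryos were wild type and of the NMRI strain, and the labels name no treatment. Each stage comprised 2 biological replicates, each of them the forelimb buds of a single embryo. The earlier stage is named E9.5 in the sample titles and E9.75 in the protocol, and its samples retained the adjoining trunk, whereas no trunk is mentioned for E10.5, so that stage and trunk tissue cannot be told apart. For E10.5, hindlimb buds appear in the tissue label in addition to forelimb buds, but not in the source label or the protocol. Only 1 combined list of regions per stage was used, so that sequencing depth is unknown, no value has a replicate error and no test across embryos was made. In these whole tissues, a region open in fewer cells and a region less open in each cell cannot be told apart.

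In the early limb bud, cells at the posterior margin secrete Sonic hedgehog (SHH), which patterns the digits and sustains outgrowth. Without ligand, PTCH1 keeps SMO inactive and GLI3 is processed to a repressor, whereas ligand binding to PTCH1 and its co-receptors BOC, CDON and GAS1 releases SMO and allows GLI activators to form. Ptch1, Hhip and Gli1 are themselves transcribed in response to the signal, and PTCH1 and HHIP restrain its spread by binding the ligand.

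GLI proteins bind DNA at the letters GACCACCCA, which were searched on both strands. Of the 91 E9.5 regions 3 held them, 2 at Ptch1 and 1 at Gas1 (3.30%, 95% Wilson interval 1.13 to 9.25%), beside 1.48% of all E9.5 regions. Of the 104 E10.5 regions 2 held them, both at Ptch1 (1.92%, 0.529 to 6.74%), beside 1.14% of all E10.5 regions. Since wide regions hold more letters, regions of like width would give 1.33 and 1.25 such regions, and the intervals include the shares of both lists. The 4 sites are shown with their flanks as 61 bases, 5′ to 3′ on the strand of the motif, with the motif in capitals, because they are the places at these loci where this sequence lies in open chromatin.
Ptch1 intron, chr13:63667743-63667751, plus strand: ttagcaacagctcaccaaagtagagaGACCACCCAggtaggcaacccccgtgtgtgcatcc
Ptch1 intron, chr13:63670593-63670601, minus strand: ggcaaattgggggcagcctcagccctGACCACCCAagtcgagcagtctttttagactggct
Ptch1 upstream, chr13:63674773-63674781, minus strand: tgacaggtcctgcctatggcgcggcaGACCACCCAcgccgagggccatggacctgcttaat
Gas1 downstream, chr13:60186523-60186531, minus strand: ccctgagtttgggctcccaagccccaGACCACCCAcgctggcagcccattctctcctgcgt

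The Ptch1 site upstream of the gene lay 303 bp before its 5′-most start and was inside a region at both stages. The first intronic site was also inside a region at both stages. The second intronic site lay inside the E9.5 region only, since the nearest E10.5 region ended at 63670343. The Gas1 site lay 92.1 kb downstream of the gene in a region without an E10.5 counterpart. A match of letters is a description and does not show that a GLI protein was bound.

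The first 8 of these letters, GACCACCC, occurred at 7 further places in the regions of the 9 genes, at 5 different genes. With these, 6 E9.5 regions (6.59%) and 7 E10.5 regions (6.73%) held the shorter sequence, compared with 4.34% and 3.37% of all regions in the respective list, and the intervals of 3.06 to 13.6% and 3.30 to 13.2% include those values. The 4 sites below are shown as examples at Gli1, Gli2, Gli3 and Hhip, the last pair because they lie in E10.5-specific regions.
Gli1 intron, chr10:126777762-126777769, minus strand: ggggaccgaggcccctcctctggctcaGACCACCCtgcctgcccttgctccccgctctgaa
Gli2 intron, chr1:120945438-120945445, plus strand: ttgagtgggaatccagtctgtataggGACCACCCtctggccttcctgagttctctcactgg
Gli3 upstream, chr13:15434664-15434671, plus strand: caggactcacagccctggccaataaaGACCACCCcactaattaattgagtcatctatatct
Hhip intron, chr8:82508827-82508834, plus strand: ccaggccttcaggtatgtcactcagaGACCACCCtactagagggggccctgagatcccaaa

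The sites at Gli1 and Gli2 were inside regions at both stages. The Gli3 and Hhip sites shown lay in regions found at E10.5 alone. For the SMAD sequences, the palindrome GTCTAGAC was present in 1 region of the 9 genes at each stage. The GC-rich letters GGCGCC were present in 14 E9.5 regions (15.4%) and 15 E10.5 regions (14.4%), less than the 27.0% and 22.4% of all regions. All regions are also more often promoter-proximal, and the part of this in the difference was not tested.

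Each region carries a score of the authors, on the scale of 10 times the negative log10 of its MACS p-value, with a limit at about 3100. Because such scores grow with sequencing depth, they were compared between stages as percentiles within their own list, where 100 is the highest. Promoter-proximal regions, within 2.5 kb of a start, made up 16 of the 91 E9.5 regions (17.6%, 11.1 to 26.7%) and 13 of the 104 E10.5 regions (12.5%, 7.45 to 20.2%). Over all regions these shares were 38.3% and 32.9%, so that the regions of the 9 genes were distal more often than those of the lists.

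Regions with at least 1 bp in common between the lists are named shared here, and those without are named stage-specific. Of the 91 E9.5 regions, 30 were E9.5-specific (33.0%, 24.2 to 43.1%), compared with 29.9% of all E9.5 regions and 40.3% of distal E9.5 regions. Of the 104 E10.5 regions, 42 were E10.5-specific (40.4%, 31.5 to 50%), compared with 35.0% of all E10.5 regions and 49.6% of distal ones. Regions of the same class and score decile would give 31.5 and 42.4 stage-specific regions, close to the 30 and 42 observed. Both lists were also cut to their higher-scoring 50%, where a partner in the lower-scoring 50% no longer counts. There 36.8% of the E9.5 and 52.7% of the E10.5 regions of the 9 genes had no partner. Over all regions of that selection the shares were 25.9% and 31.9%, without matching by class or score. Set against the whole other list, as in the definition above, 15.8% and 27.3% of these regions of the 9 genes were specific. Over the lists these shares were 10.8% and 18.1%. Promoter-proximal regions made up 31.6% and 23.6% of that selection for the 9 genes, and 61.3% and 50.8% over the lists. All 42 E10.5-specific regions were distal, and so were 27 of the 30 E9.5-specific regions, the other 3 being promoter-proximal at Ptch1 and Hhip. This is common in the lists, where 15573 of 16390 E10.5-specific and 10584 of 12730 E9.5-specific regions were distal. Without Gli3, which had 15 of the 42 E10.5-specific regions, more than any other gene, the E10.5-specific share was 33.8%. In bases, the regions covered 129.1 kb at E9.5 and 134.9 kb at E10.5, with 82.0 kb in common, 45.0% of the bases covered at either stage.

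The number of regions varied widely among the genes. Gli2 and Gli3 had the most, with 25 and 16 regions at E9.5 and 23 and 24 at E10.5. Only 0.0989% of gene symbols with a protein-coding start had at least as many E9.5 regions as Gli2, and 0.270% had at least as many E10.5 regions as Gli3. Smo had a single region per stage, and Gli1 had 1 and then 2. The stretch of genome lying nearest to a start of the gene was shortest for Gli1 (14.2 kb) and Smo (30.2 kb) and longest for Gli2 (432.7 kb) and Gli3 (688.4 kb), but that of Hhip was nearly as long as that of Gli2 (424.9 kb). Ptch1 had fewer regions at E10.5 than at E9.5 (13 and 9), as did Boc (12 and 10), whereas Hhip (9 and 11), Cdon (5 and 10) and Gas1 (9 and 14) had more.

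**Figure D1:**
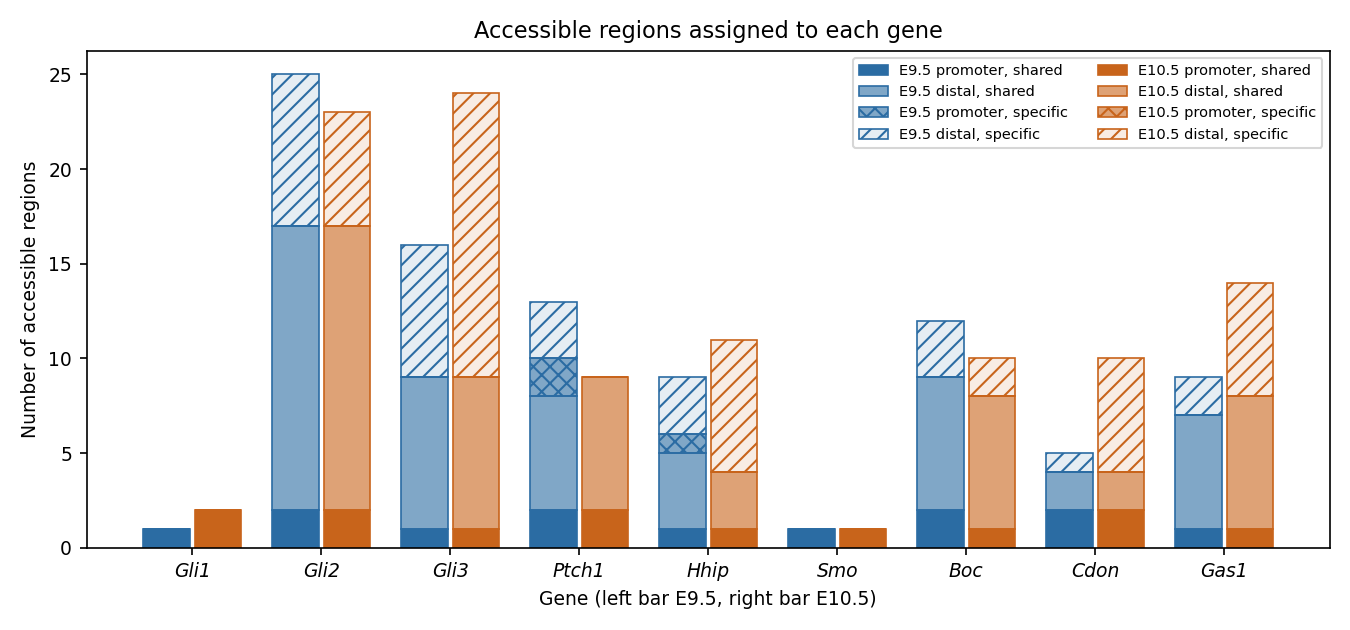
Number of accessible regions per gene at E9.5 (blue, left bars) and E10.5 (orange, right bars), with full colour for shared promoter-proximal regions, paler colour for shared distal regions, cross-hatching for stage-specific promoter-proximal and diagonal hatching for stage-specific distal regions. Gli2 and Gli3 have the tallest bars, Ptch1 has no hatched part at E10.5, and 15 of the 24 E10.5 regions of Gli3 are stage-specific.

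Promoters were open at both stages for all 9 genes. This is common in the lists, where 13.1% of E9.5 and 5.31% of E10.5 promoter-proximal regions were stage-specific. Gli3, Gas1 and Ptch1 had the strongest promoters of the 9, at the score limit of 3100 at E9.5. Their E10.5 scores were 3118.67, 2738.19 and 2203.02. The Gli2 promoter scored 2460.79 at E9.5 and 2592.79 at E10.5. These 4 promoters stood between percentiles 95.7 and 99.8 in both lists. Those of Cdon (2326.52 and 1270.33) and Smo (1795.64 and 1126.74) stood between 88.2 and 95. The Hhip promoter was the lowest ranked of the 9, with 912.03 at E9.5 (percentile 78.1) and 351.20 at E10.5 (percentile 62.1).

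Ptch1 encodes the receptor that binds SHH and is a target of the signal. Its gene record spans chr13:63610261-63674474 on the minus strand, with 4 starts. The strongest region, chr13:63664032-63671215 at E9.5, covered 7184 bp of the first part of the gene, and at E10.5 the same stretch held 2 regions, chr13:63664047-63668396 with a score of 2203.02 and chr13:63668595-63670343 with 1637.42, the strongest distal region of the gene at E10.5. The region at the 5′-most start, which holds the upstream GLI sequence, scored 761.96 at E9.5 (percentile 74.5) and 366.68 at E10.5 (percentile 63.3). Both stages thus had these regions in their upper ranks.

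None of the 9 E10.5 regions of Ptch1 was E10.5-specific, which allows a share of up to 33.3%, whereas 5 of its 13 E9.5 regions had no E10.5 counterpart. Regions of the list with the same class and score decile would give 2.90 E10.5-specific regions, and those with like GC content 2.71. Among the 1049 genes with at least 9 E10.5 regions, 23 (2.19%) had none that was E10.5-specific. Ptch1, with exactly 9, is among the smallest of that set, and a count of 0 is less likely with more regions. In addition, 2 of its 9 regions were shared through the same wide E9.5 region. The value depends on the definition, because 3 of the 9 were E10.5-specific when a reciprocal overlap of 50% was required. The strongest E9.5-specific region, chr13:63655611-63656633 with a score of 336.96, lay in an intron 9.51 kb downstream of the nearest start and was also the strongest distal region of the gene at E9.5. Of the other 4, 2 lay within 2.5 kb of a start near the 3′ end of the gene and scored 116.34 and 117.64. With a single start per gene, 8 E9.5 regions were assigned to Ptch1 in place of 13, of which 2 were specific, and with scores of at least 100, 3 were specific.

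A pair of neighbouring intronic regions of Ptch1 ranked higher at E10.5. The first, 11.9 kb from the nearest start, scored 135.13 at E9.5 (percentile 23.0) and 561.42 at E10.5 (percentile 74.2). The second, 14.2 kb from that start, scored 315.30 (percentile 55.6) and 785.91 (percentile 81.5). A region 69.2 kb upstream of the gene ranked lower, with 261.08 (percentile 50.1) and 107.51 (percentile 11.8). In numbers of shared and specific regions at each stage, Sdk2 had the same counts as Ptch1, and Hoxc4 and Klf13 differed by 2 in the sum of the 4 counts, with 6 genes at that difference or less.

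Boc encodes an immunoglobulin-family co-receptor that binds SHH together with PTCH1. It had 12 E9.5 regions, of which 3 were specific, and 10 E10.5 regions, of which 2 were specific. Its promoter had 2 adjoining E9.5 regions, which scored 1165.66 and 177.01, and a single E10.5 region of 3254 bp spanned both with 1213.85. The strongest distal region at E9.5 was intronic, 27.9 kb downstream of the start (chr16:44530044-44532126), with 1769.29 (percentile 90.9), and it scored 651.61 at E10.5 (percentile 77.5). At E10.5 the strongest distal region lay 57.2 kb upstream (chr16:44615155-44617192), with 1678.92 (percentile 94.2) against 411.96 at E9.5 (percentile 62.1). A region 73.9 kb upstream (chr16:44632398-44633414) stood near the bottom of the E9.5 list, with 78.59 (percentile 1.89), and its E10.5 partner scored 759.05 (percentile 80.8), the widest difference among the 61 shared E9.5 regions of the 9 genes. The upstream side of Boc therefore held its highest-ranked distal regions at E10.5. The strongest specific regions were an intronic one 20.2 kb downstream at E9.5 (242.57) and one 20.7 kb upstream at E10.5 (316.76). When starts of all gene types competed, 6 E9.5 regions were assigned to Boc in place of 12, and 0 of them were specific.

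Cdon encodes a co-receptor related to BOC. Its regions went from 5 at E9.5, of which 1 was specific, to 10 at E10.5, of which 6 were specific. Regions of like class and score would give 4.28 specific regions at E10.5 and those of like class and GC content 3.50, and the interval of the share is wide (60%, 31.3 to 83.2%). The strongest of them, chr9:35169824-35171674, lay 58.0 kb upstream with a score of 589.09. The strongest distal region at E9.5, 48.6 kb upstream (chr9:35179325-35180821), scored 1063.32 (percentile 81.1), and its E10.5 partner scored 139.52 (percentile 26.1). At E10.5 the 58.0 kb region was the strongest distal one. Of the 8 distal E10.5 regions, 7 lay upstream of their nearest start. The E9.5-specific region, 20.2 kb upstream, scored 147.59.

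Gas1 encodes a membrane-anchored co-receptor and is a short gene (chr13:60275766-60278726, minus strand). All its distal regions, 8 at E9.5 and 13 at E10.5, lay on the downstream side. The stretch nearest to its starts measured 194.4 kb over both sides. The nearest start of the flanking gene Gm5084 lay 34.6 kb away upstream, and that of Zcchc6 354.1 kb away downstream. The assignment rule therefore left much less room for regions upstream. The strongest distal region at E9.5, 30 kb downstream (chr13:60247464-60249720), scored 1357.15 (percentile 85.9), and its E10.5 partner scored 130.43 (percentile 22.4). The region 4.57 kb downstream also ranked lower at E10.5, with 1172.09 (percentile 83.1) and 254.38 (percentile 51.9). The order was the opposite for the outermost shared regions. The region 119.0 kb downstream went from 147.67 (percentile 27.6) to 749.48 (percentile 80.5), and that 107.9 kb downstream from 290.77 (percentile 53.3) to 721.27 (percentile 79.7). At E10.5 the strongest distal region lay 66.7 kb downstream with 750.92.

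The E9.5-specific regions of Gas1 numbered 2, at 53.6 kb (score 506.24) and at 92.1 kb (score 299.62), the latter with the GLI sequence shown above. At E10.5, 6 of 14 regions were specific (42.9%, 21.4 to 67.4%), compared with 5.70 for regions of like class and score and 5.30 for those of like class and GC content. The strongest, chr13:60108673-60109699, lay 169.4 kb downstream with a score of 462.12. Counting only regions within 100 kb of a start left 8 of the 14, of which 2 were specific.

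Hhip encodes a membrane protein that binds Hedgehog ligands without passing the signal on, and it is induced by the signal. Of its regions, 4 of 9 were E9.5-specific and 7 of 11 were E10.5-specific (63.6%, 35.4 to 84.8%), where regions of like class and score would give 3.42 and 5.15 and those of like class and GC content 2.98 and 6.06. Only 23.6% of the bases open at either stage were open at both, the lowest value of the 9 genes. A promoter-proximal E9.5-specific region, 2.06 kb downstream of the start (chr8:82579310-82580390), scored 311.16, and an intronic one 20.1 kb downstream (chr8:82561351-82562317) scored 314.07 and was the strongest distal region at E9.5. At E10.5 the strongest distal region was specific and lay beyond the 3′ end of the gene, 73.0 kb from the nearest start (chr8:82440686-82441713), with 554.67 (percentile 73.9). The E10.5-specific region with the GLI letters shown above, chr8:82508454-82509387, scored 178.76. None of the 5 shared E9.5 regions differed by 25 percentile points or more. With starts of all gene types, 4 E10.5-specific regions were assigned to Hhip. Dact1 had the same 4 counts of shared and specific regions as Hhip, and Ube2e3 and 3110018I06Rik differed by 1.

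Smo encodes the seven-pass membrane protein that PTCH1 holds inactive. Its region at the promoter was its only one, chr6:29684729-29686918 at E9.5 with 1795.64 (percentile 91.2) and chr6:29684838-29686731 at E10.5 with 1126.74 (percentile 88.2). Of the bases open at either stage, 86.5% were open at both.

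Gli1 encodes an activator whose transcription reports Hedgehog signaling. A single E9.5 region of 4426 bp (chr10:126775591-126780016) spanned its starts with 2477.40 (percentile 95.8), and at E10.5 the stretch held 2 regions, chr10:126775685-126778201 with 833.06 (percentile 82.5) and chr10:126778523-126779974 with 321.78 (percentile 59.5). The stronger E10.5 region contained the intronic site shown above. The bases in common were 89.7% of those open at either stage, the highest value of the 9 genes, so the accessible stretch was nearly the same while its rank was lower at E10.5.

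Gli2 encodes the main activator of the family. Its gene record, chr1:120730709-120950196 on the minus strand, has 3 starts. Of its 25 E9.5 regions 8 were specific, and of its 23 E10.5 regions 6 were specific (26.1%, 12.5 to 46.5%), where regions of like class and score would give 9.78 and 9.89 and those of like class and GC content 9.73 and 6.15. The strongest distal region at E9.5, 19.4 kb downstream of the nearest start (chr1:120929812-120931200), scored 1157.12 (percentile 82.8) and at E10.5 912.16 (percentile 84.3). At E10.5 an intronic region 77.5 kb from the nearest start (chr1:120800790-120802520) was the strongest distal one, with 1460.28 (percentile 92.4), against 757.41 at E9.5 (percentile 74.4). Its neighbour at 80.2 kb scored 81.44 at E9.5 (percentile 2.39) and 713.11 at E10.5 (percentile 79.4).

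Other distal regions of Gli2 also ranked higher at E10.5. The region at 156.8 kb, beyond the 3′ end of the gene, scored 114.43 (percentile 14.0) and 852.34 (percentile 83.0). The intronic region at 104.1 kb scored 118.61 (percentile 16.0) and 547.84 (percentile 73.7), and the one 34.1 kb upstream scored 91.03 (percentile 4.37) and 264.51 (percentile 53.3). In the opposite direction, a region 66.4 kb upstream scored 214.78 (percentile 43.6) and 117.80 (percentile 16.9). Thus 5 of the 17 shared E9.5 regions of Gli2 stood 25 or more percentile points higher at E10.5 and 1 stood lower. Of these 5, the one at 17.7 kb shares its E10.5 partner with the neighbouring region at 19.4 kb. The strongest specific regions were intronic, with 406.28 at E9.5 (71.5 kb, chr1:120807045-120808334) and 290.88 at E10.5 (19.2 kb, chr1:120897793-120899017).

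Gli3 encodes the factor that acts mainly as a repressor in the anterior limb bud. Its gene record, chr13:15555068-15821859 on the plus strand, holds many of its regions: 12 of the 16 E9.5 regions and 12 of the 24 E10.5 regions were intronic. Of the E9.5 regions 7 were specific (43.8%, 23.1 to 66.8%), and of the E10.5 regions 15 were specific (62.5%, 42.7 to 78.8%). Regions of like class and score would give 10.9 E10.5-specific regions, and regions of like class and GC content 13.8. Among the 1049 genes with at least 9 E10.5 regions, 343 (32.7%) had a specific share at least as high, so that this share is common among genes with many regions. Among the bases open at either stage, 28.1% were open at both.

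The upstream side of Gli3 held most of the difference in number, with 4 distal regions at E9.5 and 11 at E10.5. A group of 3 E10.5-specific regions lay 121.8, 119.7 and 117.9 kb upstream and scored 617.36, 896.85 and 116.72 in that order. The strongest of them, chr13:15434447-15436217 (percentile 84.0), was also the highest-scoring distal region of Gli3 at E10.5, and it contains the Gli3 site shown above. Regions found at E10.5 alone lay still farther out, at 250.2 kb (437.49), 316.7 kb (168.55) and 409.8 kb (592.61), and at 281.9 and 354.8 kb upstream only E9.5 regions were found (183.32 and 188.45). Counting only regions within 100 kb of a start left 9 of 16 and 14 of 24 regions, of which 2 and 7 were specific. Within the gene, E10.5-specific regions at 87.7 kb (382.84) and 96.4 kb (501.74) lay on either side of an E9.5-specific one at 92.7 kb (100.56). The strongest E9.5-specific region, at 139.0 kb (chr13:15694344-15695322), scored 240.67.

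Shared regions of Gli3 differed in rank in both directions. An intronic region 85.5 kb downstream scored 107.30 at E9.5 and 708.07 at E10.5 (percentile 79.3), a difference of 68.8 percentile points. Likewise, the region at 201.0 kb scored 196.43 (percentile 40.2) and 839.63 (percentile 82.7), and the region at 4.60 kb scored 73.00 (percentile 0.999) and 253.70 (percentile 51.8). In the opposite direction, the strongest distal region at E9.5, 78.1 kb downstream (chr13:15633192-15634569), scored 620.26 (percentile 70.5) and at E10.5 119.70 (percentile 17.7). The region at 250.9 kb scored 332.17 (percentile 56.9) and 102.99 (percentile 9.46). The regions at 78.1 and 85.5 kb thus exchanged their ranks while the region between them, at 80.3 kb, stood at 69.2 and 63.0. By counts of shared and specific regions, Foxa2 (differing by 1), Rarb (3) and Pdzrn3 (4) were the genes most like Gli3.

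**Figure D2:**
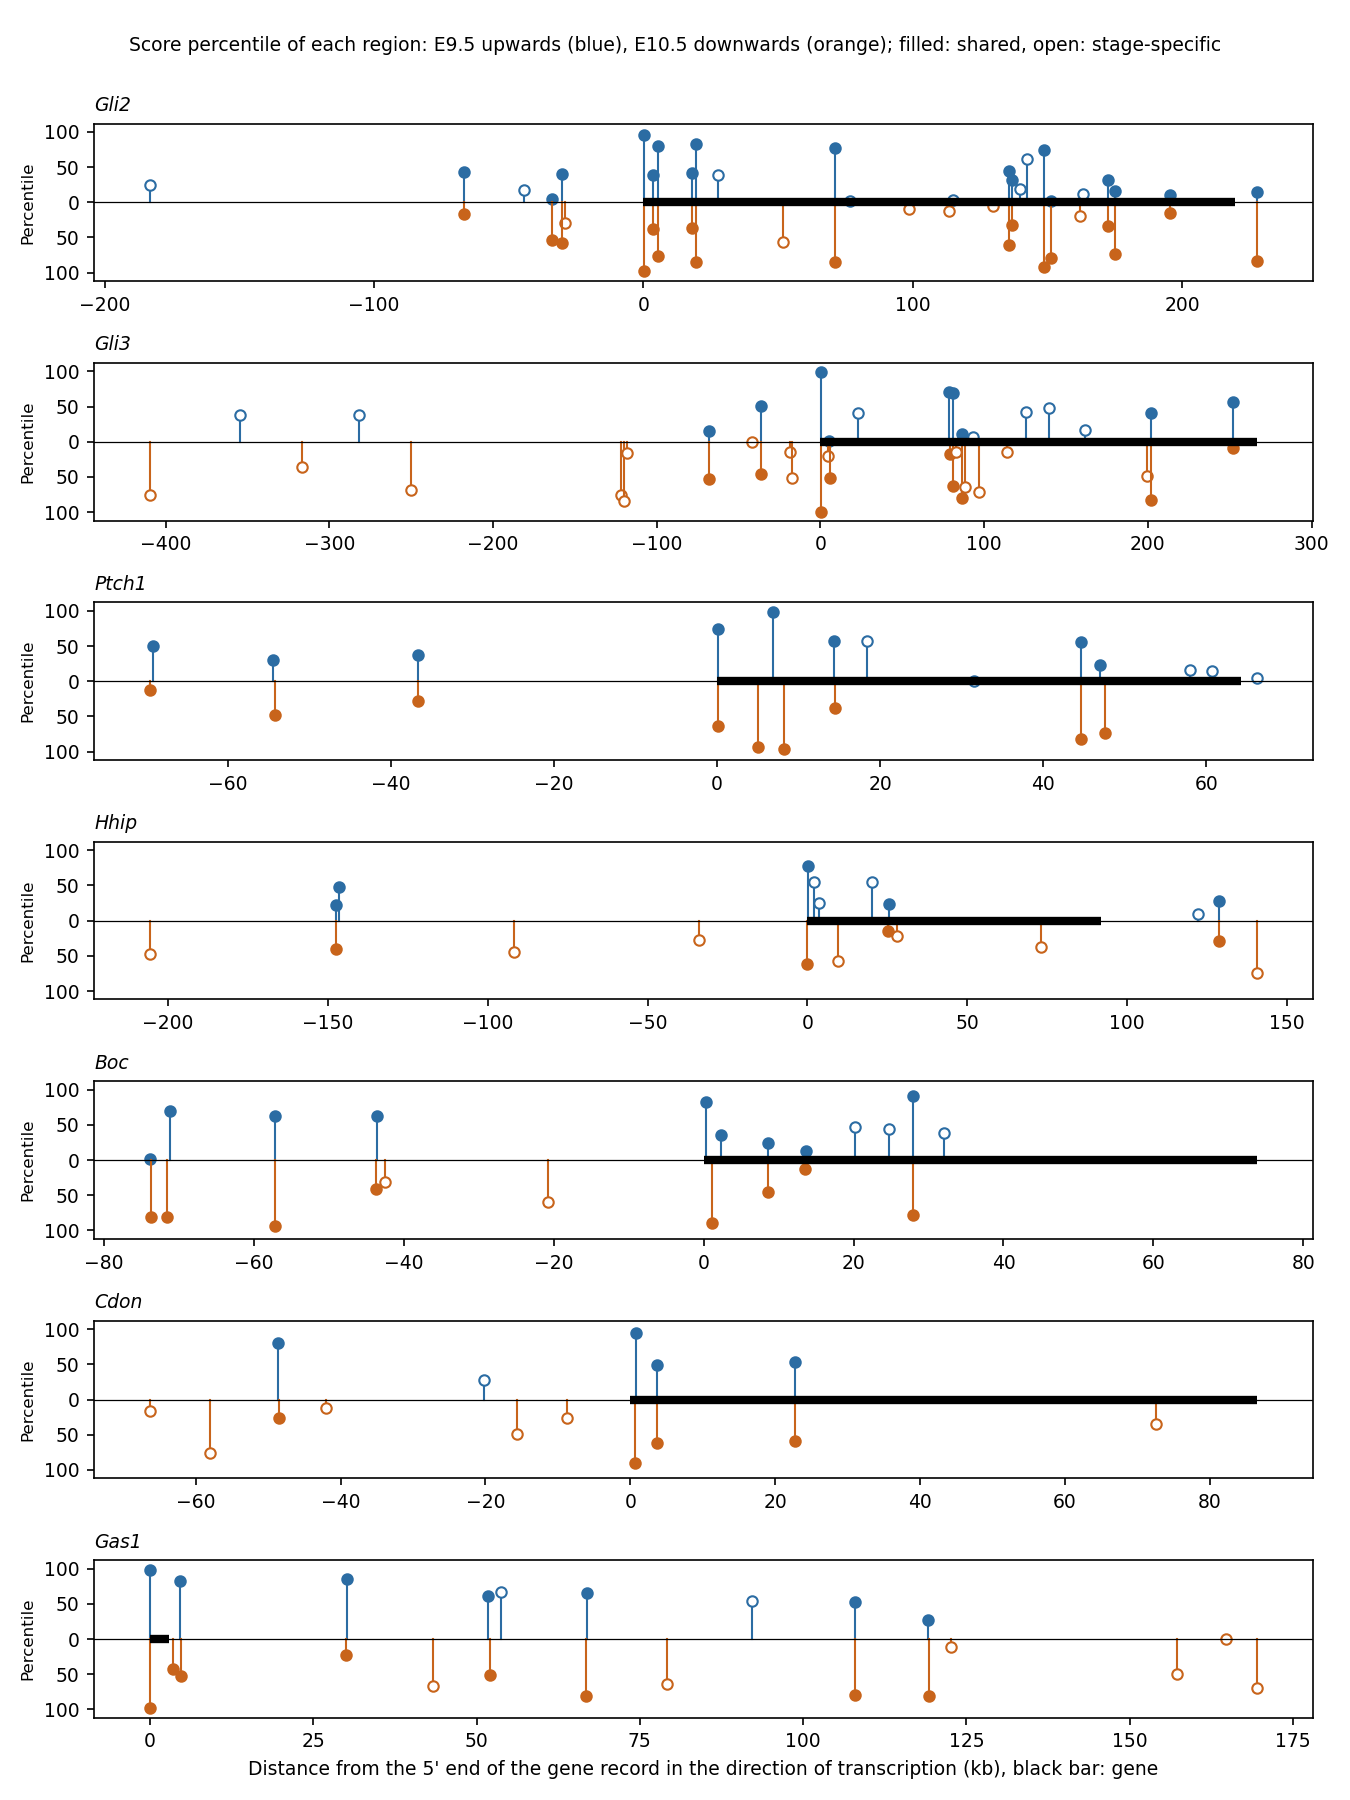
Regions of 7 genes by their distance in kb from the 5′ end of the gene record in the direction of transcription (horizontal axis), with the score percentile upwards for E9.5 (blue) and downwards for E10.5 (orange). Filled points are shared regions, open points stage-specific ones, and the black bar is the gene; distances in the text are to the nearest start instead. The open orange points upstream of Gli3, the one-sided arrangement at Gas1 and the lack of open orange points at Ptch1 can be seen. At Gas1 the assignment rule leaves little sequence on the upstream side.

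Across the 9 genes, 61 E9.5 regions were shared and could be compared by rank with their best-scoring E10.5 partner. Of these, 16 stood at least 25 percentile points higher at E10.5 (26.2%, 16.8 to 38.4%), beside 11.2% of all shared E9.5 regions. A further 7 stood at least 25 points lower (11.5%, 5.67 to 21.8%), beside 9.58% of all. The median difference was 2.01 points for the 9 genes and 0.0874 points for all shared regions. Among distal regions alone, 15 of 48 stood higher (31.2%, 19.9 to 45.3%), beside 19.3% of all shared distal regions, a value just below the interval. These 15 include the Gli2 region at 17.7 kb, whose second E10.5 partner, at 17.6 kb, stood at percentile 36.5, below the 41.5 of the E9.5 region. Of 13 shared promoter-proximal regions, 1 stood higher and 0 lower, the first being the smaller Boc promoter region, whose partner also covers the stronger one. The regions that stood higher belonged to Gli2 (5), Gli3 (4), Boc (3), Ptch1 (2) and Gas1 (2), and none belonged to Hhip, Cdon, Smo or Gli1. The intervals treat regions as independent and cover counting error only.

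**Figure D3:**
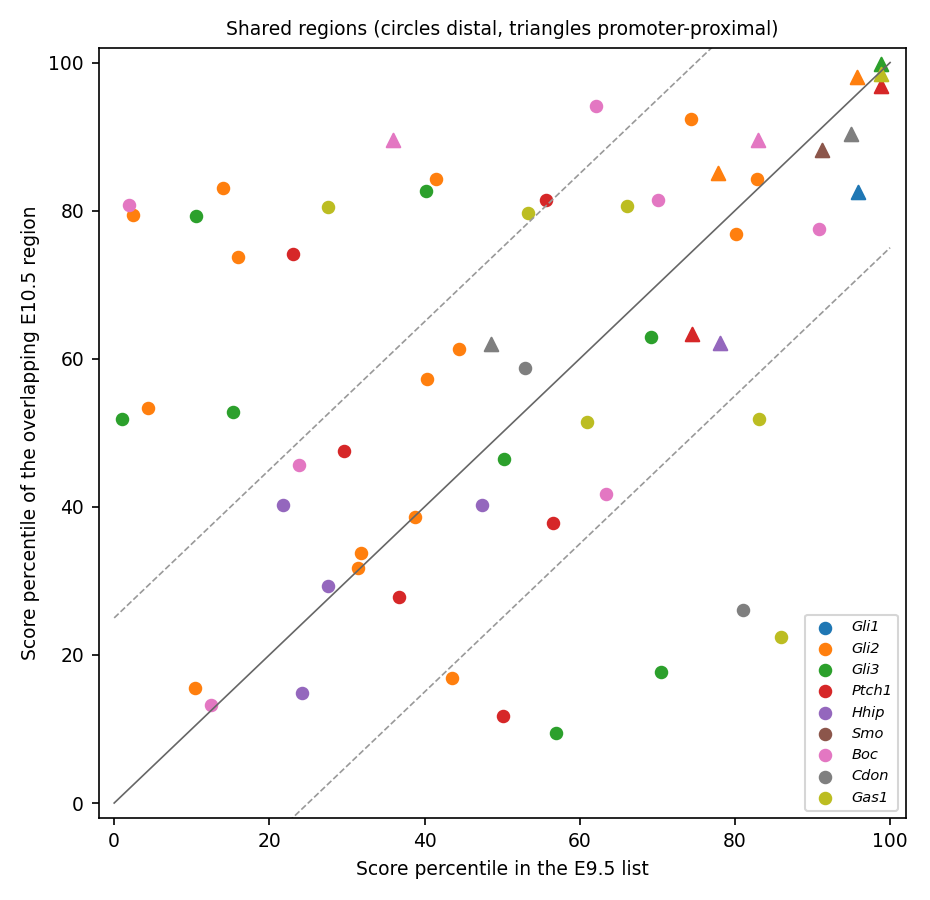
Score percentile of each of the 61 shared E9.5 regions in the E9.5 list (horizontal axis) and of its best-scoring partner in the E10.5 list (vertical axis), coloured by gene, with circles for distal and triangles for promoter-proximal regions. The solid line marks equal percentiles and the dashed lines a difference of 25 points; 16 regions lie on or above the upper dashed line and 7 on or below the lower one.

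Shared and specific regions of the 9 genes differed less in GC content than those of the whole lists, which are more often promoter-proximal. The median GC content of E10.5-specific regions was 44.9% and that of shared E10.5 regions 49.0%, compared with 42.6% and 52.0% over all regions. At E9.5 the medians were 47.6% and 49.2%, compared with 49.3% and 51.7%. Over the distal regions of the lists, the specific and shared medians were 42.5% and 48.1% at E10.5, and 48.4% and 48.1% at E9.5. Beside these distal values, the difference at the 9 genes was smaller at E10.5 but not at E9.5. The regions of Gli3 were the poorest in GC, with medians of 44.1% at E9.5 and 43.1% at E10.5. Simple repeats of up to 2 letters and at least 40 bases were present in 12 E9.5 regions (13.2%) and 10 E10.5 regions (9.62%) of the 9 genes. Over all regions these shares were 5.97% and 5.30%. Of the 42 E10.5-specific regions of the 9 genes, 1 held such a repeat (2.38%). At the centre of the strongest E10.5-specific region of Gli3 a repeat reached 33 bases. The longest unbroken repeat of that region was 36 bases, so it was not counted above. Most of its central 200 bases were nevertheless CT and CA runs in succession. The part of repeats in how reads were placed was not tested.

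**Figure D4:**
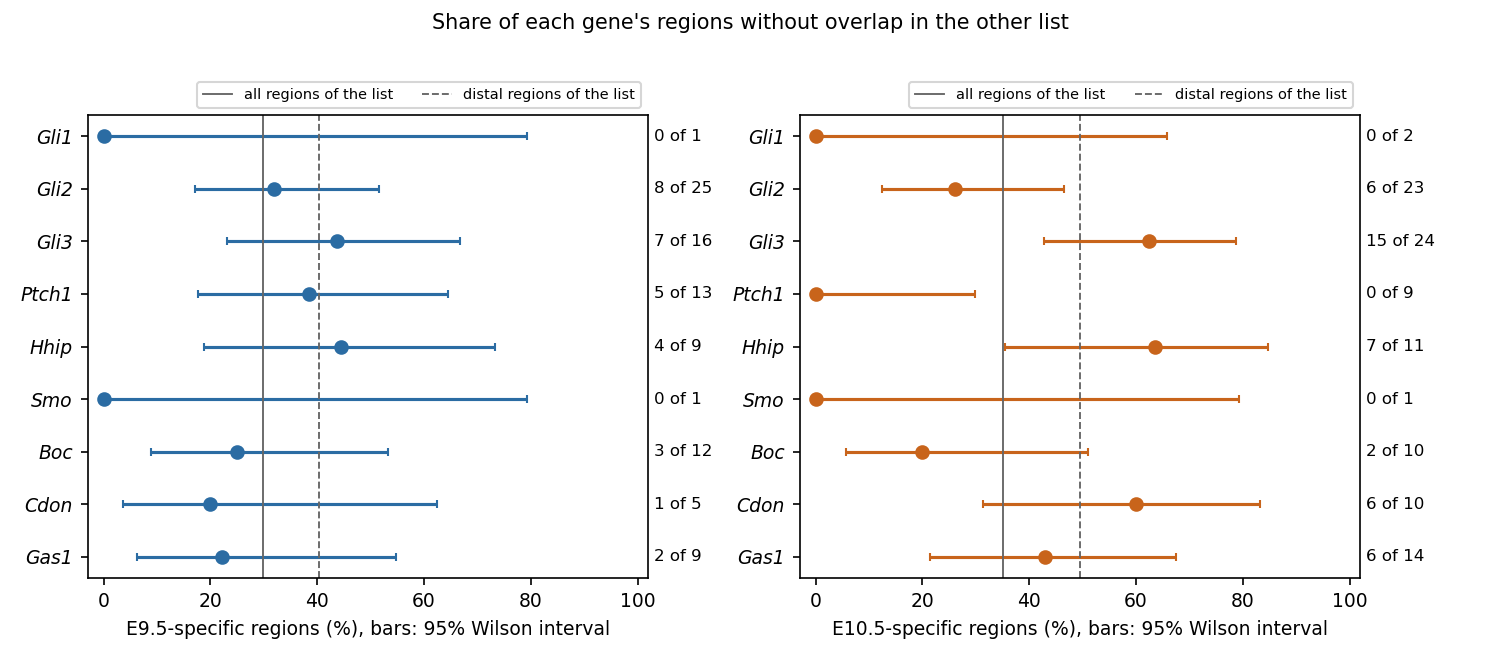
Share of stage-specific regions among the regions of each gene at E9.5 (left) and E10.5 (right), in percent, with 95% Wilson intervals (counting error only) and the counts at the right edge. The solid line is the share over all regions of the list (29.9% and 35.0%) and the dashed line that over its distal regions (40.3% and 49.6%). At E9.5 all 9 intervals include the solid line, and at E10.5 the interval of Ptch1 lies below it and those of Gli3 and Hhip lie above it while including the dashed line.

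A further 21 genes of the pathway were examined by the same rule, namely mainly ligands and their processing factors and intracellular and ciliary components, of which 20 were found in the annotation by symbol. A promoter-proximal region was present for 19 of them at E9.5 and 17 at E10.5. Together they had 59 E9.5 regions, 18 of them specific (30.5%, 20.3 to 43.1%), and 56 E10.5 regions, 14 of them specific (25%, 15.5 to 37.7%), and both intervals include the value of the whole list. The ligand gene Shh had 2 promoter-proximal regions at either stage, the stronger with 290.76 at E9.5 (percentile 53.3) and 211.93 at E10.5 (percentile 45.0). The other ligand genes, Ihh and Dhh, had a promoter-proximal region at E9.5 (253.85 and 132.83) and none at E10.5. Sufu, which encodes the cytoplasmic inhibitor of GLI proteins, had a strong promoter at both stages (2023.39 and 1570.02), and 4 of its 8 E9.5 regions but 0 of its 4 E10.5 regions were specific. The acyltransferase gene Hhat had 13 and 15 regions, and apart from Hhat and Sufu none of these genes had more than 6 at a stage.

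The labelled tissue was examined through promoter-proximal regions of marker genes. All 7 limb mesenchyme markers had such a region at both stages (scores of 89.91 to 1922.89 at E9.5 and 74.17 to 2333.68 at E10.5). The lowest was Tbx5, below the score of 100 of the stringent p-value at both stages. All 7 somite and trunk markers also had a region at both stages (175.04 to 1548.11 and 108.14 to 1252.79). The same held for 5 of 6 neural tube markers (592.60 to 2647.85 and 105.38 to 1791.64), with Sox1 absent from both lists. Of 4 endothelial and blood markers, Kdr and Tal1 had a region at both stages and Cdh5 and Gata1 at neither. Of 4 ectodermal markers 2 and 1 had one, with Trp63 and Krt5 at neither stage. The hindlimb genes Tbx4 and Pitx1 both had a promoter-proximal region at E9.5, and Tbx4 alone had one at E10.5. Promoters of genes that are silent in a tissue can be accessible, and the part of trunk cells in the differences at the 9 genes was not tested.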

How the data were processed

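The authors aligned ATAC-seq reads to mm9 with Bowtie (version 1.1.0 in the submitters' processing notes), called regions per replicate with MACS 1.4, and combined the 2 replicates of each stage with MSPC (stringent p-value 1e-10, weak p-value 1e-06). The deposited score is the authors' value per combined region; no header states its scale, which was read from the study's methods and the lowest values, near the 60 of the weak p-value. Scores grow with depth and are not scaled between stages.

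Regions were annotated with GENCODE vM1 (22380 protein-coding genes, 70064 starts) and sequences read from NCBIM37, the same assembly as mm9; 0 regions ran past a chromosome end. The distance was taken from the region's centre. A percentile is the rank of a score within its list, ties averaged. "Like" regions share the class (promoter-proximal or distal) and the decile of score or GC content. Shares carry 95% Wilson intervals, for counting error only; where a count was 0, the share of 3 counts is the upper limit. Assignment and overlap were tested on simulated lists.

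Described are, per gene, the strongest promoter, distal and stage-specific regions, those with the GLI letters and, chosen after their values were seen, further regions with large rank differences. Similar genes have the smallest summed difference over 4 counts. The 9 genes, lists and rules were chosen with earlier results of these data known. Alternatives varied scores, starts, distances, overlap and motif. Python 3.11.15, numpy 2.4.6, pandas 2.3.3 and matplotlib 3.10.9 were used. A few items withheld for evaluation are not reported here.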

Additional observations from a re-analysis of the deposited data

How the results depend on the processing

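No paired analysis was possible because a single list per stage was used, combined from both replicates, and for the same reason no replicate could be left out. Of 371 values recomputed under alternatives, 317 stayed within 1.5 times a count or within the interval of a share and 54 did not. Whether a value changed direction was not tested. The E10.5-specific share of the 9 genes was above that of the list in the main setting (40.4% and 35.0%). It was below it without Gli3 (33.8% and 35.0%) and among distal regions alone (46.2% and 49.6%). The E9.5-specific share was above it in the main setting (33.0% and 29.9%) and below the list's 40.3% among distal regions alone. In the other settings both shares stayed above those of the list. Restriction of both lists to the higher-scoring 50% left 38 and 55 regions of the 9 genes. It raised the promoter-proximal shares to 31.6% and 23.6% (61.3% and 50.8% over the lists). It also raised the E10.5-specific share, taken against the cut other list, to 52.7% (31.9% over the list). Setting these regions against the whole other list gave specific shares of 15.8% at E9.5 and 27.3% at E10.5 (10.8% and 18.1% over the lists). With 8 motif letters, 6 and 7 regions held the GLI sequence. Among distal regions alone, a setting chosen after seeing the data, the specific shares were 44.1% and 41.2% for the other pathway genes, and 36% and 46.2% for the 9 genes. Leaving out each of the 9 genes in turn, also chosen after seeing the data, gave specific shares of 30.7 to 34.2% at E9.5 and 33.8 to 44.4% at E10.5, the lowest in both without Gli3. The share of shared regions that stood 25 points higher lay between 24.1% and 27.6%. Ptch1 had 1 E10.5-specific region when the centre had to lie inside the other region, and 1 when both lists were cut to the higher-scoring 50%. The causes were not tested. Depth is unknown and limits what the lists can show of weak regions.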
